A study of Mus musculus with 19 samples.

Results

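The genes described are 33 genes of DNA damage signaling and recombination repair, listed by name and taken from the deposited expression table of 24689 genes. They comprise 5 damage kinases and checkpoint factors, 5 factors that process broken DNA ends, 4 members of the BRCA complexes, 5 factors of strand invasion, 6 genes of the Fanconi anemia pathway, 4 enzymes that act on joint DNA molecules, the polymerase of theta-mediated end joining, and 3 genes of mismatch and base excision repair. All 33 were in the table, and all 33 passed the filter on low values, which kept 22745 genes with at least 0.1 transcripts per 1000000 (TPM) in at least 3 mice.

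The study asked how 2 oncogenic inputs, alone and together, change the progenitor cells of the mouse tongue epithelium. PolyA RNA of microdissected tongue epithelium from 19 mice was sequenced 15 days after induction. E mice (n = 5) carry Krt14-CreERT, LSL-rtTA and tetON_E6-E7, the oncogenes of human papillomavirus 16. Y mice (n = 3) carry Krt14-CreERT, LSL-rtTA and tetON_YAP1S127A, a form of the transcriptional coactivator YAP1 that resists inhibition by the Hippo pathway. EY mice (n = 6) carry both effector transgenes with Krt14-CreERT and LSL-rtTA. Of the 5 control mice (N), 3 have Krt14-CreERT and LSL-rtTA without an effector, N mouse 4 has LSL-rtTA without Cre, and N mouse 5 has Krt14-CreERT and both effectors but no rtTA. Littermates between 8 and 16 weeks of age were used, with an H2B-GFP reporter, and all groups were given 3 intralingual doses of tamoxifen and doxycycline chow. The Krt14 promoter limits recombination to basal keratinocytes, whereas the RNA came from whole epithelium. Values of E, Y and EY mice can thus mix cells with and without active effectors, while each N mouse lacks the effectors, Cre or rtTA.

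Per mouse, between 8798700 and 10654405 reads on genes were recovered in N, 8285602 and 9482472 in E, 8269674 and 9249340 in Y, and 8841013 and 11007304 in EY epithelia. Groups were compared with limma on log2(TPM + 0.1) in 1 model of all 19 mice. A gene is said to have risen or fallen where its Benjamini-Hochberg adjusted p over all 22745 genes was below 0.01, and to be a differentially expressed gene (DEG) where its log2 fold change was also beyond 1 in either direction. The comparisons with N share the same 5 N mice. Across all 22745 genes the log2 fold change had a median of 0.33 for EY against N, 0.13 for Y against N, 0.07 for E against N, 0.18 for EY against Y and 0.26 for EY against E. Median-of-ratios scaling brought these medians to 0.011, -0.033, -0.024, 0.020 and 0.042. Fold changes after this scaling are given as scaled values, so that members can be read relative to the shift of all genes.

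Cells that meet broken or stalled DNA activate the kinases ATM and ATR, which halt the cell cycle through CHEK2 and CHEK1 and recruit repair factors. Breaks in replicated DNA can be repaired without loss by homologous recombination, in which ends are trimmed to single strands, BRCA1, PALB2 and BRCA2 prepare them for strand invasion, and the sister chromatid serves as template. Many of these genes are transcribed mainly in cells that replicate their DNA. In N epithelia the study saw dividing cells only in the basal layer, whereas in E, Y and EY epithelia KI67-positive cells also lay above it. The human papillomavirus proteins E6 and E7 act on p53 and on the retinoblastoma protein.

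In EY epithelia 29 of the 33 members rose against N by limma and 0 fell, where 23.9% of all genes tested rose and 7.97% fell. At an unadjusted p below 0.05 there were 32 members (48.6% of all genes), and limma voom on the recovered reads called 30 (30.9%). Of the members, 26 were DEGs, against 12.6% of all genes for upward DEGs. In bulk tissue, a larger share of cells that express a gene and more of its RNA per cell cannot be told apart. The median log2 fold change of the members was 1.53, with a range from -0.38 for Xrcc3 to 2.72 for Blm, beside a median of 0.33 over all genes. After scaling the median was 1.18, 28 members rose where 13.5% of all genes did, and Xrcc3 fell where 13.8% did. Every EY mouse was above every N mouse in 29 members, as in 20.9% of all genes. Leaving out any 1 of the 19 mice gave between 29 and 30 members that rose and between 25 and 27 DEGs, and all 29 calls were made in each of these 19 fits. Fancb was the member whose rise was not called after scaling. The summed level of the members was between 103.8 and 131.7 TPM in the N mice and between 254.9 and 296.6 TPM in the EY mice. It stood at 130.03, 166.8, 174.2, 189.1 and 186.9 TPM in the 5 E mice and at 165.6, 167.6 and 184.3 TPM in the 3 Y mice, so that E mouse 1 was within the range of N.

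**Figure D1:**
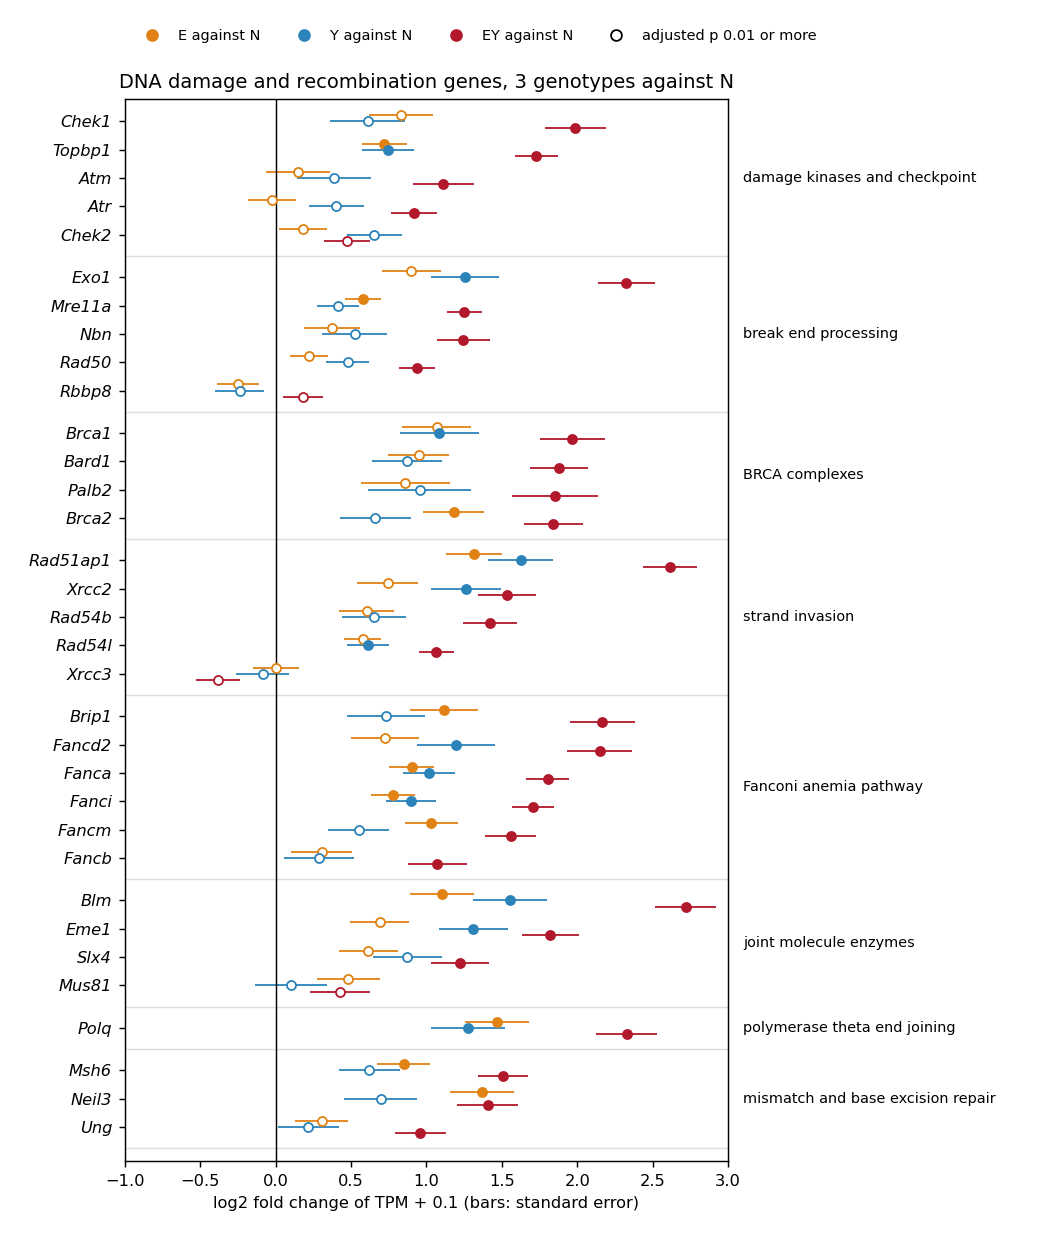
Log2 fold change of TPM + 0.1 of the 33 members in E (orange), Y (blue) and EY (red) epithelia against N, ordered by role, with bars for the standard error and open circles for an adjusted p of 0.01 or more. The EY values lie farthest to the right in most roles and run from -0.38 for Xrcc3 to 2.72 for Blm.

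A list of 20 proliferation markers moved with the members. EY epithelia had all 20 of them called as risen, E epithelia 19 and Y epithelia 12, and none was at 0 in any group. Their summed level was 367, 400, 414, 353 and 386 TPM in the 5 N mice, 705, 1032, 1153, 1307 and 1145 TPM in the 5 E mice and 799, 930 and 1049 TPM in the 3 Y mice. In the EY mice the sum was 2232, 2143, 1823, 2239, 1945 and 1903 TPM. Pcna was the most abundant marker in each group. The part of proliferation in the level of the members was not tested.

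The promoters of the members were searched for motifs, whether or not the member rose. The RefSeq promoter table (build GRCm38.p6, 250 bases before to 50 after the gene start) held 26 of the 33 members, and those not in it were Rad50, Nbn, Rbbp8, Exo1, Rad54b, Xrcc2 and Fancd2. Short motifs of 5 kinds were searched on both strands, and 0 matches of different motifs overlapped. The E2F motif TTCCCGCC was in the promoters of 6 members (23.1%) and of 2.52% of 27025 genes, and TTTCGCGC or TTTGGCGC in 1 member (3.85%) and 0.929% of genes. Together these E2F motifs were found in 7 members (26.9%), namely Topbp1, Chek1, Rad51ap1, Fancb, Fancm, Polq and Msh6, against 3.39% of genes. CCAAT, bound by NF-Y, was in 15 members (57.7%) and 41.1% of genes, with 6 matches in Xrcc3. TTTGAA, the cell cycle homology region, was in 3 members (11.5%) and 20.2% of genes, and GGAATG, bound by TEAD, the partner of YAP1, in 2 members (7.69%) and 16.6% of genes. Rad54l has 2 entries that start 1 base apart and share a single CCAAT. These matches describe the letters of the window and were not tested as binding sites.

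The 250 bases before the gene start are printed for the members with the largest rises in EY, Blm and Rad51ap1, and for Topbp1 and Fancm, 2 of the 3 members (with Fancb) that have an E2F motif in this stretch, with motif matches in capitals. They lie upstream of the first exon, at chr7:80534999-80535248 on the minus strand for Blm, chr6:126939588-126939837 on the minus strand for Rad51ap1, chr9:103305077-103305326 on the plus strand for Topbp1 and chr12:65075353-65075602 on the plus strand for Fancm. Matches on the opposite strand are printed as the reverse complement, ATTGG for CCAAT and GCGCGAAA for TTTCGCGC. In Blm the capitals mark CCAAT at 186 and 161 bases before the start. In Rad51ap1 they mark CCAAT at 230 and 36 bases. In Topbp1 they mark TTTCGCGC at 129 bases, and in Fancm GGAATG at 73, CCAAT at 63 and TTCCCGCC at 54 bases.
Blm: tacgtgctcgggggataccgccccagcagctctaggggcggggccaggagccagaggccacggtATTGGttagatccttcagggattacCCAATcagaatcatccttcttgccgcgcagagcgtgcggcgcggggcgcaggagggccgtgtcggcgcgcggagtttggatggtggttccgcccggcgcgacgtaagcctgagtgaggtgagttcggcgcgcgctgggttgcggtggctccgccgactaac
Rad51ap1: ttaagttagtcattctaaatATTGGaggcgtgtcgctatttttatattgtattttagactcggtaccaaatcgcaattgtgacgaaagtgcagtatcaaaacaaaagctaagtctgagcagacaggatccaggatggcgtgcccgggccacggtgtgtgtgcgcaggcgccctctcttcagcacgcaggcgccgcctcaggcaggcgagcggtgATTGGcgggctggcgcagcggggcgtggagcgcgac
Topbp1: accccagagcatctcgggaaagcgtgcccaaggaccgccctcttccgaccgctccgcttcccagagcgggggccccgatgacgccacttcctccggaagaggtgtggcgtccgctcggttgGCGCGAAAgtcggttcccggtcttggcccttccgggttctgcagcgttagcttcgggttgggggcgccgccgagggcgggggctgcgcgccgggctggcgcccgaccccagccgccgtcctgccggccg
Fancm: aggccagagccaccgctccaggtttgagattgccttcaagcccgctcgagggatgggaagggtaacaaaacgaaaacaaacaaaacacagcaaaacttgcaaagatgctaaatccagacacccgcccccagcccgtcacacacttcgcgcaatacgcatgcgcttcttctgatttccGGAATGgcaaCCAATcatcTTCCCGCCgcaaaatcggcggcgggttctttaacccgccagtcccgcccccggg

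**Figure D2:**
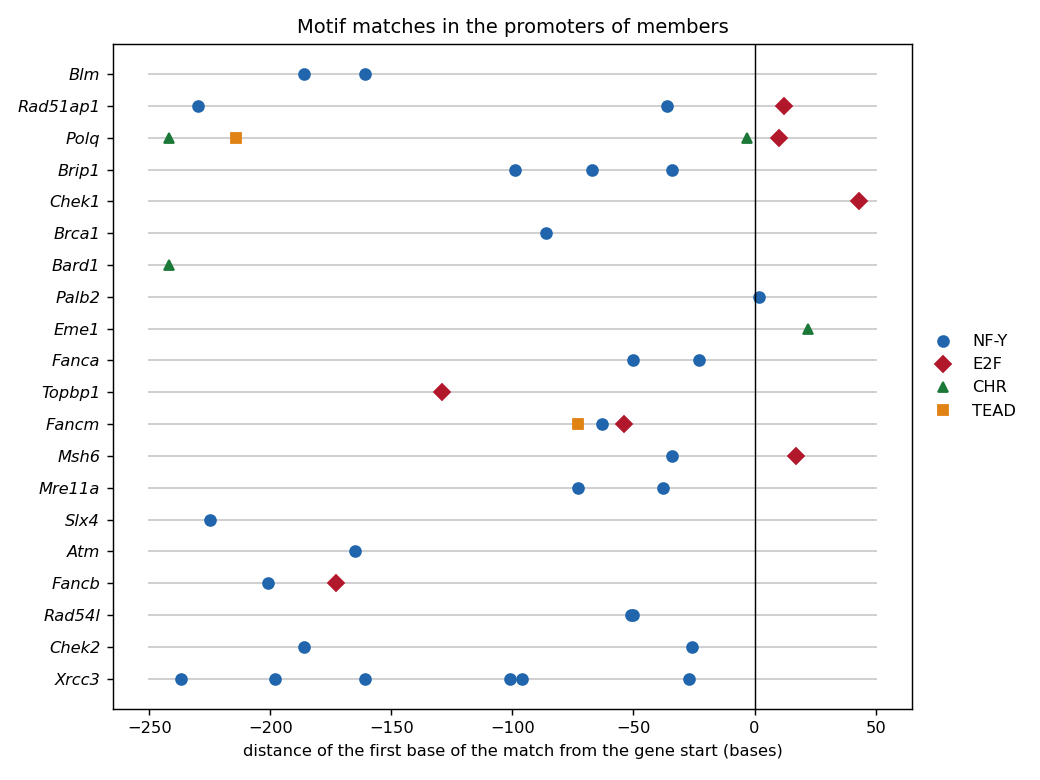
Position of each motif match in the promoters of the members that hold one, with the distance of its first base from the gene start in bases on the horizontal axis, 1 line per gene and 1 symbol per motif. Members are ordered by their EY fold change from Blm at the top, and CCAAT matches (blue) are the most frequent.

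The kinases that sense damage and their signaling partners stand first in the pathway. Chek1, the kinase that ATR activates to delay mitosis, was at 3.07, 3.72, 4.92, 2.91 and 4.18 TPM in the 5 N mice and at 4.04, 6.59, 6.96, 7.70 and 9.11 TPM in the 5 E mice. In the 3 Y mice it was at 3.84, 6.90 and 6.92 TPM, and it was at 14.9, 12.7, 14.4, 17.5, 17.7 and 13.2 TPM in the 6 EY mice. All EY mice were above all other mice, while E mouse 1 and Y mouse 1 were within the range of N. The log2 fold change of Chek1 in EY was 1.99 ± 0.20 (SE, adjusted p = 5.52e-07), with a scaled value of 1.62. Topbp1, which binds stalled forks and activates ATR, was at 8.67, 11.2, 12.4, 10.7 and 8.66 TPM in the 5 N mice and at 11.0, 17.2, 17.9, 20.5 and 19.9 TPM in the 5 E mice. Topbp1 stood at 14.5, 18.1 and 19.5 TPM in the 3 Y mice and at 33.6, 35.1, 32.6, 32.8, 33.2 and 37.5 TPM in the 6 EY mice. Its EY mice were above all others, its Y mice above all N mice, and E mouse 1 was within the range of N. Topbp1, whose upstream bases with an E2F motif are printed above, had a log2 fold change of 1.73 ± 0.14 (SE, adjusted p = 4.64e-08) in EY and a scaled value of 1.35.

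Atm, the kinase activated by double-strand breaks, stood at 1.27, 1.46, 2.18, 1.19 and 1.55 TPM in the 5 N mice, 1.12, 2.00, 1.94, 1.77 and 1.68 TPM in the 5 E mice and 1.63, 2.23 and 2.15 TPM in the 3 Y mice. It was at 2.51, 3.70, 3.84, 2.45, 4.43 and 3.66 TPM in the 6 EY mice. The EY mice were above all others, and the E and Y mice overlapped with N. Atm had a log2 fold change of 1.11 ± 0.20 (SE, adjusted p = 0.000242) in EY (scaled 0.75), of 0.39 (adjusted p = 0.326) in Y and of 0.15 (adjusted p = 0.831) in E epithelia. Atr, the kinase activated by single-stranded DNA, was at 1.58, 2.18, 2.38, 2.08 and 1.71 TPM in the 5 N mice, 1.47, 2.01, 1.96, 2.28 and 2.01 TPM in the 5 E mice and 2.26, 2.94 and 2.73 TPM in the 3 Y mice. It was at 3.07, 3.63, 4.36, 3.35, 4.54 and 4.08 TPM in the 6 EY mice. Here too the EY mice were above all others, and the E and Y mice overlapped with N. Its log2 fold change in EY was 0.92 ± 0.15 (SE, adjusted p = 9.71e-05), below 1 and so no DEG, with a scaled value of 0.55. Chek2, the kinase that ATM activates, ranged from 1.38 to 3.40 TPM over the 19 mice. Its levels overlapped between EY and N, and its log2 fold change in EY was 0.48 (adjusted p = 0.0181), which did not pass the test (without N mouse 2 it did, at 0.57 and an adjusted p of 0.00621), and 0.12 (adjusted p = 0.533) after scaling.

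Break ends are trimmed to single strands by nucleases before they can invade a template. Exo1, the exonuclease of long-range trimming, was at 0.987, 1.01, 1.36, 1.21 and 1.18 TPM in the 5 N mice and at 1.33, 2.09, 2.30, 2.89 and 2.90 TPM in the 5 E mice. Exo1 stood at 3.07, 2.47 and 3.12 TPM in the 3 Y mice and at 7.08, 7.21, 4.64, 5.50, 5.82 and 7.03 TPM in the 6 EY mice. The EY mice were above all others, the Y mice were above all N mice, and E mouse 1 overlapped with N. Exo1 rose in EY by a log2 fold change of 2.33 ± 0.19 (SE, adjusted p = 3.32e-08), with a scaled value of 1.96, and in Y by 1.26 ± 0.22 (SE, adjusted p = 0.00101), with a scaled value of 1.07. Mre11a, the nuclease of the complex that first binds broken ends, was at 3.02, 3.00, 3.78, 3.00 and 2.98 TPM in the 5 N mice, with N mouse 3 above the rest. Mre11a stood at 3.55, 4.49, 5.49, 4.98 and 5.54 TPM in the 5 E mice, at 3.90, 4.32 and 4.46 TPM in the 3 Y mice and at 7.61, 8.11, 6.84, 8.05, 7.92 and 7.29 TPM in the 6 EY mice. All EY mice were above all others, and E mouse 1 was within the range of N. The log2 fold change of Mre11a in EY was 1.25 ± 0.12 (SE, adjusted p = 1.63e-07) (scaled 0.88).

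Nbn, the subunit that links this complex to ATM, was at 3.53, 4.04, 4.87, 3.38 and 3.38 TPM in the 5 N mice and at 3.95, 5.53, 4.95, 4.67 and 5.91 TPM in the 5 E mice. Nbn stood at 3.54, 6.89 and 6.84 TPM in the 3 Y mice and at 10.6, 7.74, 8.39, 8.95, 11.8 and 8.08 TPM in the 6 EY mice. Every EY mouse was above all other mice, whereas Y mouse 1 and E mice 1 and 4 were within the range of N. Nbn had a log2 fold change of 1.25 ± 0.18 (SE, adjusted p = 1.88e-05) in EY (scaled 0.87). Rad50, the subunit that tethers the ends, was between 3.13 and 4.50 TPM in N and between 6.64 and 8.11 TPM in EY epithelia, without overlap. Its log2 fold change in EY was 0.94 ± 0.12 (SE, adjusted p = 6.15e-06) (scaled 0.57), and it was no DEG. Rbbp8, the cofactor that starts trimming, was between 2.15 and 4.09 TPM over all mice. Its log2 fold change in EY was 0.18 (adjusted p = 0.311), did not pass the test, and turned to -0.18 after scaling.

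The BRCA complexes act on the trimmed strand, and the 4 members of this role had log2 fold changes between 1.84 and 1.97 in EY. Brca1, a ubiquitin ligase and scaffold of repair, was at 0.866, 1.04, 1.28, 1.15 and 0.807 TPM in the 5 N mice and at 1.07, 2.42, 2.38, 3.42 and 2.61 TPM in the 5 E mice. Brca1 stood at 2.02, 2.38 and 2.41 TPM in the 3 Y mice and at 3.84, 4.58, 4.02, 4.00, 4.52 and 4.65 TPM in the 6 EY mice. All EY mice were above all others and all Y mice above N, and E mouse 1 was within the range of N. Brca1 had a log2 fold change of 1.97 ± 0.22 (SE, adjusted p = 1.19e-06) in EY (scaled 1.61). Bard1, the partner of BRCA1, was at 0.452, 0.287, 0.431, 0.377 and 0.308 TPM in the 5 N mice, from 37 to 60 reads, and at 0.717, 0.505, 0.854, 1.10 and 0.945 TPM in the 5 E mice. Bard1 stood at 0.715, 0.647 and 0.915 TPM in the 3 Y mice and at 1.77, 1.74, 1.46, 1.56, 1.71 and 1.51 TPM in the 6 EY mice. The N mice were below all others and the EY mice above all others, with E and Y overlapping in between. The log2 fold change of Bard1 was 1.88 ± 0.19 (SE, adjusted p = 5.08e-07) in EY (scaled 1.55), 0.95 (adjusted p = 0.0111) in E and 0.87 (adjusted p = 0.0157) in Y, and it did not pass in E or Y.

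Palb2, the bridge between BRCA1 and BRCA2, was at 1.26, 0.752, 1.09, 1.49 and 0.539 TPM in the 5 N mice and at 1.04, 2.27, 1.74, 2.26 and 2.27 TPM in the 5 E mice. Palb2 stood at 1.04, 2.91 and 2.51 TPM in the 3 Y mice and at 3.79, 3.83, 3.70, 4.07, 3.02 and 4.33 TPM in the 6 EY mice. N varied widely at 25 to 78 reads, E mouse 1 and Y mouse 1 were within its range, and the EY mice were above all others. Palb2 rose in EY by 1.85 ± 0.28 (SE, adjusted p = 4.2e-05) (scaled 1.50). Brca2, the partner of PALB2, was at 0.764, 0.848, 0.979, 0.763 and 1.05 TPM in the 5 N mice and at 1.10, 2.12, 2.59, 2.68 and 2.54 TPM in the 5 E mice. Brca2 stood at 1.45, 1.30 and 1.57 TPM in the 3 Y mice and at 3.40, 2.85, 3.66, 3.78, 3.48 and 3.24 TPM in the 6 EY mice. The other 4 E mice were above all Y mice, and E mouse 1 was below them and above N. Brca2 rose in EY by 1.84 ± 0.19 (SE, adjusted p = 7.45e-07) (scaled 1.49) and in E by 1.18 ± 0.20 (SE, adjusted p = 0.002) (scaled 1.08), and its log2 fold change in Y was 0.66 (adjusted p = 0.0648).

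**Figure D3:**
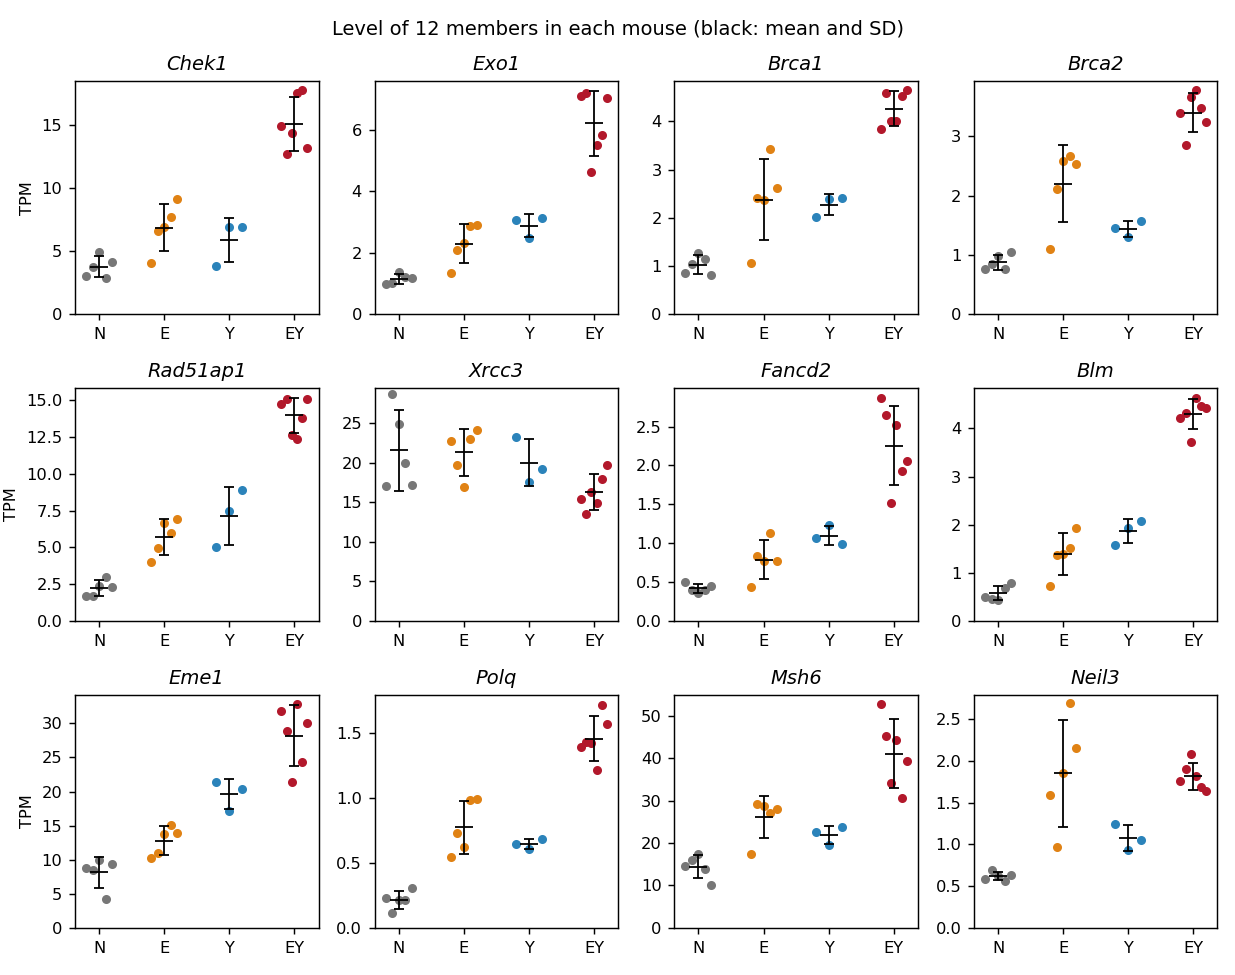
TPM of 12 members in each mouse of the N, E, Y and EY groups, 1 panel per gene with an axis from 0, points for mice and black lines for the mean and SD. The EY mice sit above all N mice in each panel but that of Xrcc3, and the Xrcc3 levels of the groups overlap.

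Factors of strand invasion help the trimmed end to search for and invade the template. Rad51ap1, which promotes strand invasion, was at 1.72, 1.701, 2.40, 3.00 and 2.35 TPM in the 5 N mice and at 4.01, 4.97, 6.66, 5.94 and 6.94 TPM in the 5 E mice. Rad51ap1 stood at 5.01, 7.49 and 8.92 TPM in the 3 Y mice and at 14.7, 15.05, 12.7, 12.4, 13.8 and 15.1 TPM in the 6 EY mice. N lay below all others and EY above all others. It rose in EY by a log2 fold change of 2.62 ± 0.18 (SE, adjusted p = 5.73e-09) (scaled 2.25), in Y by 1.63 ± 0.21 (SE, adjusted p = 8.08e-05) (scaled 1.43) and in E by 1.32 ± 0.19 (SE, adjusted p = 0.000304) (scaled 1.21). Its upstream bases are printed above, and it also has TTCCCGCC 12 bases after the start. Xrcc2, another factor of this step, was at 1.21, 1.43, 1.08, 0.799 and 1.18 TPM in the 5 N mice, from 26 to 39 reads, and at 1.78, 2.22, 1.44, 2.25 and 2.15 TPM in the 5 E mice. Xrcc2 stood at 2.75, 3.05 and 2.69 TPM in the 3 Y mice and at 5.25, 3.53, 3.25, 3.93, 2.92 and 2.37 TPM in the 6 EY mice. The Y mice were above all E and all N mice and overlapped with EY, in which mouse 6 was lowest. Xrcc2 rose in EY by 1.53 ± 0.19 (SE, adjusted p = 5.64e-06) (scaled 1.18) and in Y by 1.26 ± 0.23 (SE, adjusted p = 0.00136) (scaled 1.08).

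Rad54b, a motor protein that remodels the invaded strand, was at 0.581, 0.659, 0.607, 0.571 and 0.682 TPM in the 5 N mice and at 0.693, 0.957, 1.12, 1.25 and 1.03 TPM in the 5 E mice. Rad54b stood at 0.989, 0.927 and 1.19 TPM in the 3 Y mice and at 1.75, 2.44, 1.90, 1.63, 2.01 and 1.39 TPM in the 6 EY mice. Both E and Y mice were above all N mice and below all EY mice. Rad54b rose by 1.42 ± 0.18 (SE, adjusted p = 4.62e-06) in EY (scaled 1.08), and its values of 0.60 (adjusted p = 0.0911) in E and 0.65 (adjusted p = 0.0444) in Y did not pass. Its relative Rad54l rose less, from between 3.30 and 4.56 TPM in N to between 7.25 and 10.3 TPM in EY, with a log2 fold change of 1.07 ± 0.12 (SE, adjusted p = 1.08e-06) (scaled 0.69). Xrcc3, which acts in recombination as well, had the highest mean of the members in N, at 21.5 ± 5.10 TPM (SD, n = 5), against 16.3 ± 2.23 TPM (n = 6) in EY. These ranges overlapped, and Xrcc3 was not called, at a log2 fold change of -0.38 (adjusted p = 0.0436). After scaling it was -0.76 (adjusted p = 0.000171), a fall relative to the shift of all genes.

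The Fanconi anemia pathway unhooks crosslinks between the strands. All 6 of its genes that are among the 33 members were DEGs in EY, where 12.6% of all genes were upward DEGs. After scaling 5 of the 6 rose, where 13.5% of all genes did. Of 13 other Fanconi genes, described below, 5 rose in EY. Brip1, a helicase bound by BRCA1, was at 0.199, 0.217, 0.331, 0.292 and 0.244 TPM in the 5 N mice and at 0.360, 0.734, 0.696, 0.720 and 0.960 TPM in the 5 E mice. Brip1 stood at 0.358, 0.604 and 0.530 TPM in the 3 Y mice and at 1.32, 1.52, 1.53, 1.26, 1.65 and 1.69 TPM in the 6 EY mice. N lay below all others and EY above all others, and Y mouse 1 and E mouse 1 were lowest in their groups. The log2 fold change of Brip1 in EY was 2.17 ± 0.22 (SE, adjusted p = 3.82e-07) (scaled 1.84). Fancd2, the protein that the core complex marks with ubiquitin, was at 0.506, 0.395, 0.362, 0.399 and 0.450 TPM in the 5 N mice and at 0.436, 0.833, 0.767, 1.14 and 0.777 TPM in the 5 E mice. Fancd2 stood at 1.07, 1.23 and 0.990 TPM in the 3 Y mice and at 2.87, 2.64, 1.52, 2.52, 1.92 and 2.06 TPM in the 6 EY mice. Y and EY mice were above all N mice, EY above all others, and E mouse 1 overlapped with N. Fancd2 had a log2 fold change of 2.15 ± 0.21 (SE, adjusted p = 3.93e-07) in EY (scaled 1.81).

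Fanca, a subunit of the core complex, was at 1.47, 1.82, 1.48, 1.20 and 1.48 TPM in the 5 N mice and at 2.40, 2.42, 3.41, 2.95 and 3.22 TPM in the 5 E mice. Fanca stood at 3.30, 2.59 and 3.46 TPM in the 3 Y mice and at 5.83, 5.45, 4.26, 5.16, 6.21 and 5.83 TPM in the 6 EY mice. No N mouse reached any other mouse, and no E or Y mouse reached EY. Fanca rose in EY by 1.81 ± 0.14 (SE, adjusted p = 2.75e-08) (scaled 1.44), in Y by 1.02 ± 0.17 (SE, adjusted p = 0.000632) (scaled 0.83) and in E by 0.90 ± 0.15 (SE, adjusted p = 0.00132) (scaled 0.80). Fanci, the partner of FANCD2, was between 1.17 and 1.60 TPM in N and between 4.40 and 5.36 TPM in EY. Fanci rose in EY by 1.71 ± 0.14 (SE, adjusted p = 3.83e-08) (scaled 1.35). Fancm, the motor protein that anchors the core complex, rose by 1.56 ± 0.17 (SE, adjusted p = 1.02e-06) in EY (scaled 1.20) and by 1.03 ± 0.18 (SE, adjusted p = 0.00193) in E (scaled 0.93), and its Y value was 0.55 (adjusted p = 0.0778). Its EY mice, from 2.72 to 4.29 TPM, overlapped with E mice at 1.78 to 3.08 TPM. Fancb, another core subunit, was between 2.29 and 4.33 TPM in N and between 6.20 and 9.25 TPM in EY. Its log2 fold change was 1.07 ± 0.19 (SE, adjusted p = 0.00022), and the scaled value of 0.70 did not pass (adjusted p = 0.011).

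Joint molecules left by strand invasion are dissolved by a helicase or resolved by nucleases. Blm, the helicase mutated in Bloom syndrome, was at 0.510, 0.466, 0.446, 0.679 and 0.793 TPM in the 5 N mice and at 0.729, 1.37, 1.39, 1.51 and 1.93 TPM in the 5 E mice. Blm stood at 1.59, 1.93 and 2.08 TPM in the 3 Y mice and at 4.22, 4.31, 3.73, 4.63, 4.46 and 4.43 TPM in the 6 EY mice. EY mice were above all others and Y mice above all N mice, while E mouse 1 was within the range of N. Blm rose in EY by a log2 fold change of 2.72 ± 0.20 (SE, adjusted p = 1.59e-08) (scaled 2.37) and in Y by 1.55 ± 0.25 (SE, adjusted p = 0.000371) (scaled 1.37). Eme1, the partner of the nuclease MUS81, was at 8.83, 8.43, 9.92, 4.22 and 9.40 TPM in the 5 N mice, with N mouse 4 below the rest, and at 10.3, 11.1, 13.8, 15.1 and 13.98 TPM in the 5 E mice. Eme1 stood at 21.4, 17.2 and 20.4 TPM in the 3 Y mice and at 31.9, 28.9, 21.4, 32.8, 24.4 and 30.0 TPM in the 6 EY mice. Y mice were above all E mice, E mice above all N mice, and EY overlapped with Y through EY mouse 3. Its rise was 1.82 ± 0.19 (SE, adjusted p = 6.05e-07) in EY (scaled 1.45) and 1.31 ± 0.23 (SE, adjusted p = 0.000805) in Y (scaled 1.11), and its E value was 0.69 (adjusted p = 0.0675).

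Slx4, the scaffold that holds several nucleases, was at 2.31, 3.06, 1.63, 1.74 and 1.57 TPM in the 5 N mice and at 2.82, 2.60, 3.24, 3.79 and 3.25 TPM in the 5 E mice. Slx4 stood at 3.92, 3.94 and 3.39 TPM in the 3 Y mice and at 3.76, 4.42, 5.91, 3.57, 6.19 and 5.59 TPM in the 6 EY mice. EY and Y mice were above all N mice and overlapped with each other. Slx4 rose by 1.22 ± 0.19 (SE, adjusted p = 4.79e-05) in EY (scaled 0.86) and 0.87 (adjusted p = 0.0141) in Y, where it did not pass. Mus81 itself was between 4.35 and 7.62 TPM in N and between 5.54 and 10.6 TPM in EY, at 45 to 81 reads in N. These ranges overlapped, and Mus81 was not called, at a log2 fold change of 0.43 (adjusted p = 0.0964) and of 0.05 after scaling.

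Polq encodes the polymerase that joins ends through short shared stretches when recombination is not used. Polq stood at 0.232, 0.112, 0.214, 0.212 and 0.305 TPM in the 5 N mice, from only 16 to 46 reads, and at 0.544, 0.728, 0.623, 0.983 and 0.990 TPM in the 5 E mice. Polq stood at 0.647, 0.608 and 0.687 TPM in the 3 Y mice and at 1.39, 1.43, 1.42, 1.21, 1.72 and 1.57 TPM in the 6 EY mice. N lay below all others, EY above all others, and E and Y overlapped. Polq rose in EY by 2.33 ± 0.20 (SE, adjusted p = 8.42e-08) (scaled 2.01) and in E by 1.47 ± 0.21 (SE, adjusted p = 0.000361) (scaled 1.39).

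Of the mismatch and base excision genes, Msh6, which recognizes mismatches, was the most abundant member in E, Y and EY. Msh6 stood at 14.6, 15.99, 17.3, 13.9 and 10.1 TPM in the 5 N mice and at 17.3, 29.3, 28.7, 27.0 and 28.1 TPM in the 5 E mice. Msh6 stood at 22.5, 19.6 and 23.7 TPM in the 3 Y mice and at 52.8, 45.3, 34.2, 44.4, 30.5 and 39.4 TPM in the 6 EY mice. EY mice were above all others, Y mice above all N mice, and E mouse 1, below the other E mice, was at the upper end of N. Msh6 had a log2 fold change of 1.51 ± 0.17 (SE, adjusted p = 1.27e-06) in EY (scaled 1.13). Neil3, a glycosylase that removes oxidized bases and unhooks crosslinks, was at 0.589, 0.696, 0.625, 0.565 and 0.638 TPM in the 5 N mice and at 1.60, 0.968, 1.86, 2.69 and 2.16 TPM in the 5 E mice. Neil3 stood at 1.24, 0.937 and 1.05 TPM in the 3 Y mice and at 1.76, 1.91, 2.08, 1.82, 1.69 and 1.64 TPM in the 6 EY mice. N lay below all others, EY above Y, and the E mice spanned the whole range of EY. Neil3 rose in EY by 1.41 ± 0.20 (SE, adjusted p = 2.09e-05) (scaled 1.06) and in E by 1.37 ± 0.21 (SE, adjusted p = 0.000679) (scaled 1.27), with 0.70 (adjusted p = 0.0591) in Y. Between EY and E its log2 fold change was 0.04 (adjusted p = 0.904). Ung, which removes uracil from DNA, was between 5.16 and 7.80 TPM in N and between 11.7 and 18.1 TPM in EY, and rose by 0.96 ± 0.17 (SE, adjusted p = 0.000165) (scaled 0.59).

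With YAP1S127A alone, 12 of the 33 members rose against N, where 7.17% of all genes did, and 9 were DEGs, where 3.47% of all genes were upward DEGs. With a pseudocount of 1 TPM the number of DEGs was 2, a setting for which no share of all genes is given. The members had a median log2 fold change of 0.66, beside 0.13 over all genes, and a scaled median of 0.48 with 8 members that rose, where 3.9% of all genes did. Every Y mouse was above every N mouse in 23 members, as in 15.5% of all genes, and below in 1, Rbbp8, as in 5.59%. Exo1, Rad51ap1, Xrcc2, Fanca, Blm and Eme1 rose in all 19 fits without 1 mouse and after scaling, but Xrcc2 was not called with only the 3 N mice of 1 genotype, where 6 members rose. In a fit of the Y and N mice alone limma called 0 members, with 23 at an unadjusted p below 0.05 (26.7% of all genes), and limma voom in all groups called 11 (8.15%). The share of all genes called in the fit of Y and N alone is not given, so its 0 cannot be read as particular to the members. The other 6 calls depended on single mice, and with 3 Y mice each of them weighs much. Fanci (log2 fold change 0.90, adjusted p = 0.00142) and Polq (1.28, adjusted p = 0.00176) did not pass without Y mouse 3, at an adjusted p of 0.0133 and 0.0128. Fancd2 (1.20, adjusted p = 0.00412) did not pass without Y mouse 1, 2 or 3, at 0.0149, 0.023 and 0.0154. Rad54l (0.61, adjusted p = 0.00602) did not pass without any 1 Y mouse or N mouse 1, 4 or 5, at up to 0.0393. Topbp1 (0.75, adjusted p = 0.00636) did not pass without Y mouse 2 or 3 or N mouse 1, 4 or 5, at up to 0.0472. Brca1 (1.08, adjusted p = 0.00851) passed only without N mouse 3, E mouse 1 or E mouse 4 and was at up to 0.0437 in the other 16 fits. Without Y mouse 3, 6 members rose and 5 were DEGs. Y mouse 3 had the highest level of its group in 19 members, and Y mouse 1 the lowest in 16.

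With E6-E7 alone, 12 of the 33 members rose, where 1.71% of all genes did, and 7 were DEGs, where 1.16% were. The number of DEGs was 4 after scaling, where 224 of 22745 genes were upward DEGs. It was 1 with a pseudocount of 1 TPM, and with the mouse number as a block 6 members rose. For these last settings no share of all genes is given. The median log2 fold change of the 33 members was 0.73, beside 0.07 over all genes, with a scaled median of 0.63 and 7 members that rose after scaling, where 1.35% of all genes did. Every E mouse was above every N mouse in 13 members, as in 3.93% of all genes. Brca2, Rad51ap1, Fanca, Fancm, Polq and Neil3 rose in all 19 fits without 1 mouse and after scaling. With only the 3 N mice of 1 genotype, 3 members rose, and Brca2, Fanca, Fancm and Neil3 were not called. Fitted on the E and N mice alone, limma called 0 members, with 25 at an unadjusted p below 0.05 (14.9% of all genes), and limma voom in all groups called 14 (1.78%). For the fit of E and N alone the share of all genes called is not given either, so the same limit holds. The other 6 calls were not made in every fit. Blm (1.10, adjusted p = 0.00552) did not pass without N mouse 1, 2 or 3 or E mouse 2, 3, 4 or 5, at up to 0.0198. Fanci (0.78, adjusted p = 0.00399) did not pass without N mouse 1, 4 or 5 or E mouse 3, 4 or 5, at up to 0.0165. Topbp1 (0.72, adjusted p = 0.00932) passed only without N mouse 3, E mouse 1 or Y mouse 1, and Mre11a (0.58, adjusted p = 0.00943) only without N mouse 3 or E mouse 1. Brip1 (1.12, adjusted p = 0.00773) passed only without N mouse 3, E mouse 1 or Y mouse 1 or 2, and Msh6 (0.85, adjusted p = 0.00862) only without N mouse 3, E mouse 1 or EY mouse 1 or 5. The highest adjusted p of these 4 genes was 0.0337, 0.0354, 0.0288 and 0.0296.

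E mouse 1 had the lowest level of its group in 24 of the 33 members, and the share of all genes in which it was lowest is not given. Its summed proliferation markers were also lowest, at 705 TPM, where the other E mice lay between 1032 and 1307 TPM. Without E mouse 1, 16 members rose in E. Without N mouse 1 or E mouse 3, 4 or 5, 6 members rose, and 7 without N mouse 4 or 5. Without E mouse 4 or E mouse 5, 4 members were DEGs.

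Side by side, 11 members rose in EY but did not rise in Y or E by test, like 16.3% of all genes, 6 rose in EY and Y (5.92%), 6 in EY and E (0.501%), and 6 in all 3 (1.13%). The remaining 4, Chek2, Rbbp8, Xrcc3 and Mus81, rose in none, like 75.9% of all genes. A call that EY alone receives does not show that the groups differ, and they were compared directly. Against Y, 14 members were higher in EY, where 2.34% of all genes were, and 8 were DEGs (1.07%), with a median of 0.79 beside 0.18 over all genes. Each EY mouse was above each Y mouse in 27 members (11.1% of all genes). The 14 were Chek1, Topbp1, Mre11a, Exo1, Bard1, Brca2, Rad51ap1, Fanca, Fancm, Fanci, Brip1, Blm, Polq and Msh6, with log2 fold changes up to 1.43 for Brip1. None of the 14 calls was made in all 19 fits without 1 mouse. Without Y mouse 1, limma called 0 members, and Chek1, Topbp1, Mre11a and Brip1 then had adjusted p of 0.0209, 0.0183, 0.0113 and 0.0217. All 4 were called in the other 18 fits. The number called was 4 without Y mouse 2, 5 without Y mouse 3 or EY mouse 2, 6 without EY mouse 6, 7 without EY mouse 1, 8 without EY mouse 4 and 9 without EY mouse 5. With all mice, 28 of the 33 members had an unadjusted p below 0.05, as 23.9% of all genes did, and limma voom on the recovered reads called 15 (4.01%). After scaling, 7 members were higher, where 1.18% of all genes were, and 3 were DEGs (0.541%).

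Against E, 24 members were higher in EY, where 18.1% of all genes were, and 8 were DEGs (7.82%), with a median of 0.86 beside 0.26 over all genes. Each EY mouse was above each E mouse in 26 members (17.6% of all genes). After scaling, 16 were higher, where 11.2% of all genes were, 4 were DEGs (4.4%), and Xrcc3 was lower, where 11.5% were. Blm had the largest difference, at 1.62 ± 0.20 (SE, adjusted p = 8.7e-06), followed by Exo1 at 1.43 ± 0.19 (SE, adjusted p = 1.25e-05) and Fancd2 at 1.42 ± 0.21 (SE, adjusted p = 5.26e-05). Of the 24 calls, 18 were made in all 19 fits without 1 mouse. Fancb, Msh6, Polq, Rad54l, Ung and Xrcc2 did not pass without E mouse 1, at adjusted p from 0.0105 to 0.0157. Fancb also failed without E mouse 2 or 4 or EY mouse 2 or 5, Msh6 without EY mouse 1, 2 or 4, Ung without EY mouse 1 or 6, and Xrcc2 without E mouse 3, at up to 0.0151.

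E and Y were compared with each other in the same model, a comparison added after the other values were seen. By limma 0 members differed, where 1.04% of all genes were higher in E and 3.3% lower, with 7 members at an unadjusted p below 0.05 (23.3% of all genes). By limma voom 0 members differed (4.92%), with 6 at an unadjusted p below 0.05 (23%). The mean was higher in Y for 19 members and in E for 14. Each E mouse was below each Y mouse in 4 members, Chek2, Rad50, Xrcc2 and Eme1, as in 11.1% of all genes, and above in 0 (6.5% of all genes). The values farthest apart were 0.67 for Neil3 and 0.52 for Brca2, higher in E, and -0.62 for Eme1 and -0.52 for Xrcc2, lower in E. Their unadjusted p were 0.0134, 0.0408, 0.0144 and 0.0411.

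The interaction EY - E - Y + N asks whether EY differs from the sum of the log2 changes of E and Y. For 0 members did it pass by limma, where 0.0176% of all genes passed upward and 0.18% downward, with 2 members at an unadjusted p below 0.05, as 13.5% of all genes had. By limma voom 0 passed (0.576%) and 4 had an unadjusted p below 0.05 (13.6%). The interaction terms of the members had a median of 0.04 and ran from -0.66 for Neil3 to 0.67 for Rbbp8, whose unadjusted p was 0.00582.

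Levels of the members spanned a wide range. In N the lowest mean was that of Polq, at 0.215 ± 0.0689 TPM (SD, n = 5), and 8 members had a mean below 1 TPM. In EY the lowest mean was again that of Polq, at 1.46 ± 0.171 TPM (n = 6), and all 33 were above 1 TPM. Msh6 was highest in EY, at 41.1 ± 8.11 TPM. The highest mean was in EY for 29 members, and the lowest was in N for 30. The same counts over all genes are not given. All genes also had a positive median log2 fold change in EY, of 0.33 against N, 0.18 against Y and 0.26 against E. The order of the means was N, E, Y, EY in 16 members and N, Y, E, EY in 11, and as E and Y did not differ by test in any member, the order of these neighbours is a description. In Neil3 and Mus81 the mean of E was highest, in Chek2 that of Y, and in Xrcc3 that of N.

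**Figure D4:**
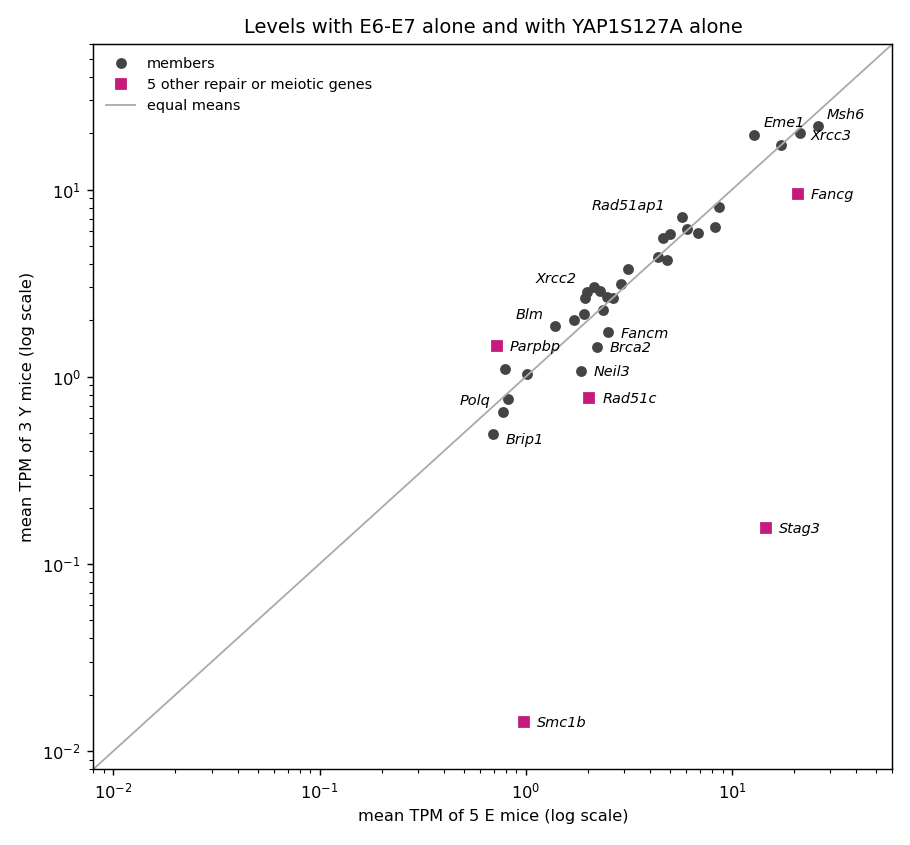
Mean TPM of the members (black) and of 5 other repair or meiotic genes (magenta) in the 5 E mice, on the horizontal axis, and the 3 Y mice, on the vertical axis, both on log scales, with a line of equal means. The members lie near the line, whereas Stag3, Smc1b, Fancg and Rad51c lie below it and Parpbp above it. These 5 genes were picked after their values were seen, so their distance from the line is no test.

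Further genes of repair and checkpoint pathways were read from fixed lists, to be held against the 23.9% of all genes that rose and 7.97% that fell in EY, and the 13.5% and 13.8% after scaling, and against the 7.17% that rose in Y and 1.71% in E. Of 32 other recombination genes tested, 21 rose in EY, 5 rose in Y and 6 in E, with a median log2 fold change of 0.79 in EY, and 12 rose and 1 fell in EY after scaling (median 0.42). In Y 3 of them rose after scaling, where 3.9% of all genes did. Fignl1, an ATPase of recombination, rose by 2.75 ± 0.23 (SE, adjusted p = 6.6e-08) (scaled 2.38), from 2.98 ± 0.725 TPM (SD, n = 5) in the N mice to 20.1 ± 1.24 TPM (n = 6) in the EY mice. Gen1, a nuclease that resolves joint molecules, rose by 2.73 ± 0.12 (SE, adjusted p = 6.56e-11) (scaled 2.37). Parpbp, an inhibitor of recombination, rose by 2.66 ± 0.17 (SE, adjusted p = 2.7e-09) (scaled 2.33). Of 22 other checkpoint genes, 19 rose in EY, 8 in Y and 9 in E, with a median of 1.23 in EY, and 15 rose after scaling (median 0.85). Among these, Clspn, the adaptor through which ATR reaches CHEK1, rose by 2.78, Cdc25c, the phosphatase that CHEK1 inhibits, by 2.46, and Rpa2, which coats single-stranded DNA, by 2.24. Their adjusted p were 3.63e-09, 7.59e-11 and 5.1e-09, and every EY mouse was above every N mouse in all 3. Trp53bp1, which shields ends from trimming, was at 3.89 ± 0.496 TPM in N and 4.40 ± 0.378 TPM in EY, and its change of 0.18 (adjusted p = 0.184) on the log2 scale was not called and turned to -0.19 after scaling.

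Of 13 other Fanconi genes, 5 rose in EY, 2 in Y and 3 in E, while the EY median of 0.23 was below that of all genes. After scaling 4 of them rose and 2 fell in EY (median -0.14). Faap24, a partner of FANCM, rose by 2.38 ± 0.16 (SE, adjusted p = 5.62e-09), Usp1, which removes ubiquitin from FANCD2, by 1.699 ± 0.13 (SE, adjusted p = 1.32e-08), and Ube2t, which attaches it, by 1.63 ± 0.20 (SE, adjusted p = 4.24e-06). Classical end joining, which ligates ends without a template, had 5 of 15 genes that rose in EY and 1 in Y, with an EY median of 0.32, near that of all genes. After scaling 2 rose and 2 fell (median 0.005). Xrcc6, a subunit of the ring that binds ends, rose by 1.23 ± 0.11 (SE, adjusted p = 1.12e-07), and Rif1, an effector of TRP53BP1, by 1.17 ± 0.19 (SE, adjusted p = 6.75e-05). Mad2l2, of the shieldin complex, rose by 0.92 ± 0.23 (SE, adjusted p = 0.00376), but not without N mouse 3 or N mouse 5, at an adjusted p of 0.0108 and 0.0105, nor after scaling (adjusted p = 0.0645). Prkdc, the kinase of this pathway, was at 0.894 ± 0.104 TPM in N and 1.14 ± 0.234 TPM in EY, and its change of 0.31 (adjusted p = 0.222) on the log2 scale was not called and turned to -0.03 after scaling.

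Lists for the repair of bases and lesions had smaller medians in EY than the members. Of 5 other mismatch repair genes 4 rose in EY, with a median of 0.65, and 2 rose after scaling (median 0.30). Pms2 rose by 1.27 ± 0.16 (SE, adjusted p = 4.94e-06), Pms1 by 1.25 ± 0.21 (SE, adjusted p = 0.000107) and Msh3 by 0.65 ± 0.18 (SE, adjusted p = 0.00769). The call of Msh3 was made only without N mouse 2, E mouse 1, 2 or 4 or any 1 Y mouse, was at an adjusted p of up to 0.0255 in the other 12 fits without 1 mouse, and was not made after scaling (0.30, adjusted p = 0.182). Of 19 other base excision genes 12 rose in EY, 3 in Y and 2 in E, with a median of 0.77, and in EY 8 rose and 2 fell after scaling (median 0.40). In Y 1 of these genes rose after scaling. Fen1, which removes flaps on the lagging strand, rose by 2.59 ± 0.18 (SE, adjusted p = 6.54e-09), from 16.6 ± 1.29 to 103 ± 26.4 TPM, Lig1, the replicative ligase, by 1.79 (adjusted p = 1.06e-06), and Mutyh, a glycosylase, by 1.33 (adjusted p = 0.00111, after scaling 0.0111). Nucleotide excision repair had 10 of 20 genes that rose in EY and 4 in Y, with an EY median of 0.54, and 5 rose and 2 fell in EY after scaling (median 0.17). Gtf2h1, a subunit of TFIIH, rose by 1.52 ± 0.12 (SE, adjusted p = 1.82e-08), the nuclease gene Ercc5 by 0.88 ± 0.13 (SE, adjusted p = 2.29e-05) and Rad23b by 0.86 ± 0.10 (SE, adjusted p = 1.27e-06). Of 7 translesion genes 3 rose in EY, 1 in Y and 1 in E. The 3 were Rad18, a ubiquitin ligase of stalled forks, by 2.49 ± 0.20 (SE, adjusted p = 4.07e-08), Primpol by 1.03 ± 0.15 (SE, adjusted p = 3.09e-05) and Polh by 0.95 ± 0.18 (SE, adjusted p = 0.000429), which did not pass after scaling (adjusted p = 0.0107).

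**Figure D5:**
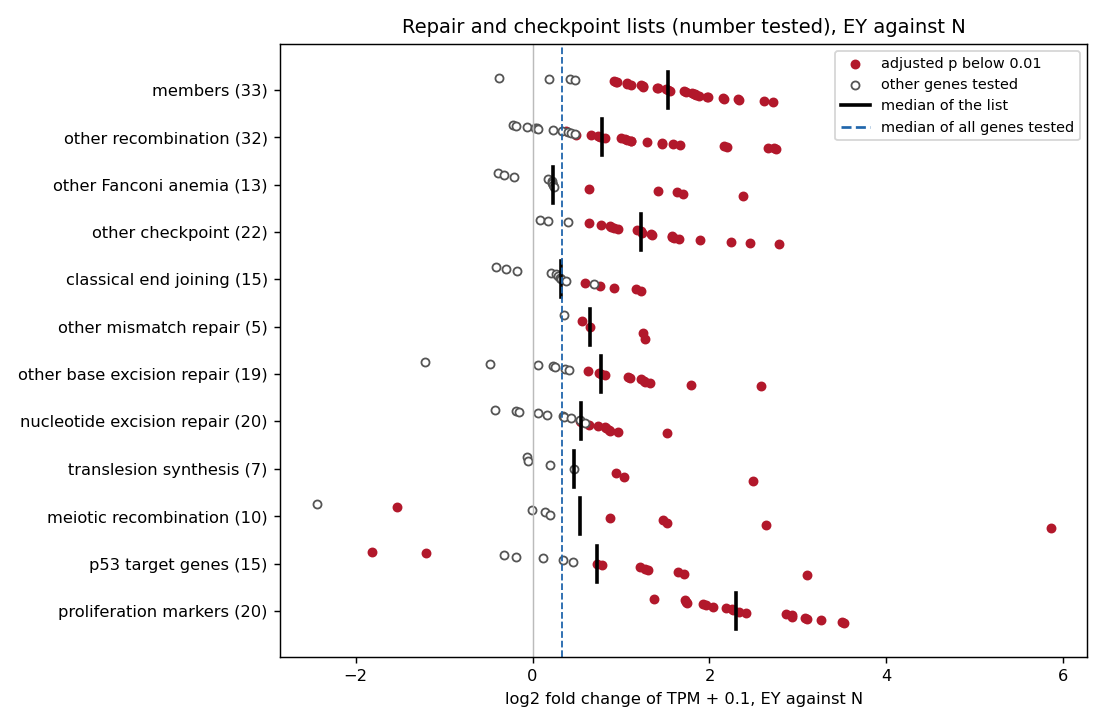
Log2 fold change of TPM + 0.1 in EY against N for each gene tested of the members and of 11 other lists, with red points for an adjusted p below 0.01, open points for the other genes, a black bar for the median of the list and a dashed line for the median of all genes. The median is 1.53 for the members, 2.30 for the proliferation markers and 0.33 for all genes.

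Of 15 meiotic recombination genes 10 were tested, and 5 rose and 1 fell in EY, 1 rose and 1 fell in Y, and 2 rose in E, while 4 rose and 2 fell in EY after scaling. In Y 0 rose and 1 fell after scaling. Stag3, a cohesin subunit of meiosis, was at 0.230, 0.273, 0.438, 0.168 and 0.190 TPM in the 5 N mice and at 7.85, 11.5, 16.7, 15.4 and 21.5 TPM in the 5 E mice. Stag3 stood at 0.0449, 0.178 and 0.244 TPM in the 3 Y mice and at 21.1, 16.1, 25.3, 25.1, 19.2 and 15.9 TPM in the 6 EY mice. All E and EY mice were above all N and Y mice, and Y lay within or below the range of N. Stag3 rose by 5.86 ± 0.27 (SE, adjusted p = 1.03e-10) in EY and by 5.32 ± 0.28 (SE, adjusted p = 2.23e-08) in E, and its Y value was -0.54 (adjusted p = 0.305). Smc1b, another meiotic cohesin subunit, had from 0 to 6 reads in the N mice and means of 0.984 ± 0.268 TPM (n = 5) in E and 0.681 ± 0.427 TPM (n = 6) in EY. Spo11, the enzyme that makes meiotic breaks, fell in EY by a log2 fold change of -1.53 ± 0.41 (SE, adjusted p = 0.0053), where all mice were below all N mice. That call was not made without N mouse 2 (adjusted p = 0.0178) or EY mouse 1, 2, 3 or 5 (0.01 to 0.0114). The 5 magenta genes, of which 4 were higher in E, were picked for the plot of E and Y levels after their values were seen. Between E and Y, the log2 difference was 5.86 (adjusted p = 4.79e-08) for Stag3 and 3.23 (adjusted p = 5.77e-05) for Smc1b. Both values depend on the 0.1 TPM added, as do the Stag3 values against N, because the low levels are near it. The difference was 1.15 (adjusted p = 0.000924) for Fancg, 1.27 (adjusted p = 0.00578) for Rad51c and -0.93 (adjusted p = 0.00737) for Parpbp. Rad51c did not pass without E mouse 2, 3, 4 or 5 or any 1 Y mouse, at up to 0.0492 without Y mouse 3. Parpbp did not pass without E mouse 1, 3 or 5, any 1 Y mouse or EY mouse 1, 4, 5 or 6, at up to 0.0651 without Y mouse 3. Other repair genes were lower in E than in Y, among them 4 of 20 nucleotide excision genes (3.3% of all genes), of which 2 also passed after scaling. Gtf2h1, at -0.88 (adjusted p = 0.000714), passed in all 19 fits without 1 mouse, whereas Ercc5, at -0.84 (adjusted p = 0.00213), did not without Y mouse 1 or 3 (0.0141 and 0.0133). Rad23b, at -0.56 (adjusted p = 0.00469), did not pass without E mouse 1, 4 or 5 or Y mouse 1 or 3, at up to 0.0285. Cetn2, the fourth, at -0.63 (adjusted p = 0.008), passed only without N mouse 4, E mouse 4 or EY mouse 1, 3, 4, 5 or 6, at up to 0.0573 without Y mouse 2.

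Of 15 target genes of p53, which E6 acts on, 8 rose and 2 fell in EY, 6 rose in Y and 1 rose in E, with an EY median of 0.73, and in EY 6 rose and 3 fell after scaling (median 0.36). Plk2 rose by 3.10 ± 0.23 (SE, adjusted p = 1.11e-08), from 58.9 ± 16.1 to 515 ± 159 TPM, with 354 ± 62.0 TPM (n = 3) in Y and 70.5 ± 14.3 TPM in E. Eda2r, a receptor gene, rose by 1.71 ± 0.20 (SE, adjusted p = 1.85e-06), and Btg2, which restrains the cell cycle, fell by -1.82 ± 0.37 (SE, adjusted p = 0.000655). Cdkn1a, the inhibitor of cyclin-dependent kinases, was at 178 ± 21.1 TPM in N and 142 ± 16.1 TPM in EY, with overlap and a log2 fold change of -0.32 (adjusted p = 0.0445).

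Markers of the epithelium and of other cell types in the tissue were summed for each mouse. The 6 epithelial markers summed to 138138, 70576, 107372, 115662 and 112224 TPM in N, 88389, 119159, 112564, 67839 and 100427 TPM in E, 103771, 55497 and 80487 TPM in Y and between 43792 and 60214 (median 53247) TPM in EY mice, with Krt13 most abundant. In EY 3 of them (Krt5, Krt14 and Cdh1) rose and 2 (Krt4 and Krt13) fell. The 8 immune markers summed to 751, 256, 122, 120 and 96.2 TPM in N, 294, 262, 263, 40.6 and 520 TPM in E, 537, 703 and 433 TPM in Y and between 236 and 785 (median 633) TPM in EY mice, with Lyz2 most abundant in N and E and S100a8 in Y and EY. Ly6g was at 0 in N, E and Y, and in EY 2 of these markers rose and 1 fell. Sums of 8 skeletal muscle markers, led by Acta1, ranged from 11.7 to 241 TPM in N and from 35.8 to 1289 TPM in EY. Sums of 6 fibroblast markers ranged from 61.5 to 293 TPM in N and from 24.2 to 153 TPM in EY, where Dcn fell. Sums of 4 endothelial markers were at most 1.07 TPM in N and 3.02 TPM in EY. The part of cell composition in the level of the members was not tested.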

How the data were processed

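RNAseq values of 19 tongue epithelia were used, from 5 N, 5 E, 3 Y and 6 EY mice grouped by the sample titles. The authors mapped read pairs to GRCm39 (STAR 2.7.9, SAMtools 1.7), counted them by gene (HTSeq 0.13.5), tested the counts (DESeq2 1.34.0) and deposited TPM, which sum to 1000000 in each mouse. The study also names TPM from Kallisto with a human transcriptome. Which of these gave the TPM used here, which are of mouse genes, and the strand setting are not stated in the sources used here. Reads per gene were recovered from the steps of the TPM for 24680 of 24680 genes above 0, within 0.001 reads, and served to state depth and for voom.

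Tests were made in R 4.3.3 with limma 3.58.1 (lmFit, then eBayes with trend) on log2(TPM + 0.1) of the 22745 genes that reached 0.1 TPM in 3 or more mice, with Benjamini-Hochberg adjustment. The fit and the recovery of reads were tested on simulated data, the recovery at the spread of depth of these mice, as it failed on simulated mice of widely differing depth. Python 3.11.15 was used with pandas 2.3.3, numpy 2.4.6 and matplotlib 3.10.9. The members and lists were chosen with earlier results of these data known. Some genes of these pathways are not reported here and are not counted in the lists.

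Values in every mouse are given for up to 3 DEGs per role in the order of their EY fold change, and for Atm, Atr, Brca1 and Brca2. From each other list up to 3 genes are named, those with the largest EY changes that passed without overlap, and also Trp53bp1, Prkdc and Cdkn1a. Beyond this rule, Fancg, Rad51c and Cetn2 are named after their values were seen. Stag3 is given in every mouse after its values were seen. Alternatives were other pseudocounts, filters, scalings, thresholds and N mice, fits of 2 groups alone, a block by mouse number, robust eBayes, voom, and each mouse left out in turn. Promoters came from RefSeq (GRCm38.p6), whereas the authors mapped to GRCm39. The transgenes, the cultured cells and the other assays of the study were not analysed here.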

Additional observations from a re-analysis of the deposited data

Results flagged for a closer look

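In 219 groups of 5 or 6 mice, the highest or lowest mouse was compared with the rest by its gap relative to the range of the group. Chance alone picks about 1 in 20 such groups, and 16 values from 9 mice stood apart. Among the members, N mouse 3 had 3.78 TPM of Mre11a, where the other N mice lay between 2.98 and 3.02 TPM. N mouse 2 had 4.09 TPM of Rbbp8 (others 2.81 to 3.06 TPM) and N mouse 4 had 4.22 TPM of Eme1 (others 8.43 to 9.92 TPM). E mouse 1 was low in 3 members, with 3.38 TPM of Rad50 (others 4.76 to 5.10 TPM), 17.3 TPM of Msh6 (others 27.0 to 29.3 TPM) and 5.33 TPM of Ung (others 9.15 to 9.79 TPM). EY mouse 6 was high in Ung, at 18.1 TPM (others 11.7 to 13.5 TPM). Of the genes of other lists, E mouse 1 was low in Usp1, at 29.1 TPM (others 42.2 to 45.5 TPM), and EY mouse 3 was low in Fignl1, at 17.7 TPM (others 20.1 to 21.1 TPM). Of the meiotic genes, N mouse 5 had 0.0495 TPM of Smc1b (others 0 to 0.00951 TPM) and N mouse 2 had 1.18 TPM of Spo11 (others 0.323 to 0.372 TPM).

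Among the summed markers, N mouse 1 had 750.6 TPM of immune markers (others 96.2 to 256 TPM). Skeletal muscle markers summed to 241.0 TPM in N mouse 2 (others 11.7 to 61.1 TPM), 132.6 TPM in E mouse 5 (others 11.7 to 37.6 TPM) and 1289 TPM in EY mouse 3 (others 35.8 to 218 TPM). EY mouse 3 was also high in summed endothelial markers, at 3.02 TPM (others 0.301 to 0.952 TPM).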

How the results depend on the processing

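The number of members that rose in EY against N was within 1.5 times the reported 29 under every alternative, at 29 to 30 without 1 mouse at a time, with 25 to 27 DEGs. There were 20 DEGs after median-of-ratios scaling or quantile normalization, and 18 with a pseudocount of 1 TPM. In Y against N, leaving out 1 mouse gave 6 to 13 members that rose and 5 to 9 DEGs. Only the 3 N mice of the Krt14-CreERT/LSL-rtTA genotype gave 6 and 5, only the 2 groups compared 0 and 0, and a pseudocount of 1 TPM 2 DEGs. In E against N, leaving out 1 mouse gave 6 to 16 members and 4 to 10 DEGs, median-of-ratios scaling 7 and 4, only those 3 N mice 3 and 3, only the 2 groups compared 0 and 0, and a pseudocount of 1 TPM 1 DEG. In EY against Y, leaving out 1 mouse gave 0 to 15 members, median-of-ratios scaling 7, only the 2 groups compared 4, quantile normalization 5, and an adjusted p below 0.05 gave 22. In EY against E the count was 18 to 25 without 1 mouse, and no member passed between E and Y or for the interaction in these fits. With the mouse number as a replicate block, 29 members rose in EY, 6 in E and 4 in EY against Y. For most of these settings the share of all genes called is not given. Without it, a lower count cannot be read as particular to the members. Of 24 same-numbered pairs, 0 correlated above 0.1 (-0.0426 to 0.0764). The mouse number comes from the sample titles and does not give the litter, so a pairing by litter was not tested. Of 5909 refits of 197 fold changes of single genes, 5350 kept their direction and side of the threshold, 547 no longer passed, 7 came to pass and 5 changed sign. The EY values of Rbbp8 and Trp53bp1 became -0.18 and -0.19 after median-of-ratios scaling and -0.15 and -0.16 after quantile normalization, and that of Prkdc became -0.033 after median-of-ratios scaling. By construction fewer mice leave fewer degrees of freedom; otherwise the cause was not tested. Polq, Palb2 and Xrcc2 had the fewest reads in any N mouse, at 16, 25 and 26.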
